A study of Mus musculus with 18 samples.

Results

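The 10 genes described here are 4 ligands of the activin and bone morphogenetic protein (BMP) branches of the TGF-beta superfamily (Inhba, Gdf5, Bmp4 and Mstn), the secreted antagonist Fst, the intracellular inhibitors Smad6 and Smad7, and the transcriptional targets Id1, Id2 and Id3. They were chosen by name, with earlier results of these data known, out of 47311 annotated genes, and all 10 had transcripts in the deposited tables. Counts of them set beside shares of all genes below are therefore descriptions. RNA was measured in C2C12 cells, a mouse skeletal muscle line grown either as dividing myoblasts or as myotubes differentiated from them. Cells of each stage carried a control siRNA (si-Ctrl) or 1 of 2 siRNAs against Setd2, si-Setd2#1 (siRNA 1 below) and si-Setd2#2 (siRNA 2). Setd2 encodes the enzyme that places the trimethyl mark on lysine 36 of histone H3. There were 6 groups of 3 libraries, described as biological replicates, and so 18 libraries. According to the labels' protocols, RNA was taken straight after the cells had been stretched, so every group shares the stretch, and no unstretched group is used here. The cells are 1 immortal line, so the groups are cultures and not animals, and p-values measure the spread between these cultures.

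Activins, myostatin, BMPs and growth and differentiation factors bind pairs of serine/threonine kinase receptors, which phosphorylate Smad proteins: Smad2 and Smad3 after activin or myostatin, Smad1, Smad5 and Smad9 after BMPs. Follistatin, the product of Fst, holds activins and myostatin away from their receptors, while Smad6 and Smad7 are made in response to the pathway and damp it inside the cell. Id1, Id2 and Id3 are classical BMP targets. Their products bind E proteins such as Tcf3 and Tcf4, and so keep MyoD and its relatives from pairing with them on E-boxes, the DNA words at which these factors activate muscle genes.

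Promoter stretches are shown because Smad proteins and E-box factors act on DNA words of this kind. A link of these words to the changes described below was not tested. RefSeq (GRCm38.p6, the same assembly as mm10) supplied a window from 250 bases before to 50 bases after the start for 6 of the 10 genes (Id2, Id3, Inhba, Mstn, Smad6 and Bmp4). The windows were searched on both strands for 4 words: the E-box CANNTG, the Smad word CAGAC, which reads GTCTG on the other strand, the palindromic Smad word GTCTAGAC, and the GC-rich Smad word GGCGCC. None of the 4 contains another. Below are 30-base stretches, 5′ to 3′ on the gene's strand, with the word in capitals.
Id3, CAGAC, chr4:136143642-136143671, plus strand: ctgtcctcggcgtCAGACcagcctaaggaa
Id3, CAGAC read from the other strand, chr4:136143741-136143770, plus strand: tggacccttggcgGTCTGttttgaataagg
Id2, GGCGCC, chr12:25096306-25096335, minus strand: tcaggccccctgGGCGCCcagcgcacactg
Id2, E-box, chr12:25096271-25096300, minus strand: aatttgccacccCAGCTGggctctcgcccg
Smad6, GTCTAGAC, chr9:64022045-64022074, minus strand: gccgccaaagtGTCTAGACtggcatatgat
Mstn, E-box, chr1:53061576-53061605, plus strand: agatcctgacgaCACTTGtctcctctaagt
Mstn, E-box, chr1:53061609-53061638, plus strand: aatataaaaagcCACTTGgaatacagtata

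The Id3 window held 2 CAGAC words and no E-box. The Id2 window held 1 E-box and 1 GGCGCC. That of Smad6 held 1 GTCTAGAC and 1 E-box. The Mstn window held 4 E-boxes, of which the pair nearest the start is printed, and 2 CAGAC words. The Bmp4 window held 3 E-boxes and the Inhba window none of the 4 words. Such words are common: of 32851 RefSeq promoter windows of this length, 72.3% held an E-box, 49.6% CAGAC, 11.9% GGCGCC and 0.213% GTCTAGAC. The matches describe letters and not binding. The window does not always lie where most of the gene's RNA begins: Inhba-202, which made up 93.0% ± 0.449 of Inhba TPM in control myotubes (SD, n = 3), starts 2624 bases downstream of the start used for Inhba, and Id3-201 starts 325 bases upstream of the one used for Id3. The whole Id3 window, with both printed words, thus lies downstream of the start of Id3-201.

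Libraries held 43.5 to 66.6 megareads of estimated counts. Setd2 stood at 99.9 to 121 CPM (counts per megaread, TMM-scaled) in control myoblasts against 35.1 to 46.1 in depleted ones, and at 99.3 to 105 in control myotubes against 33.6 to 58.1, so no depleted library reached its controls. The log2 fold changes of Setd2 were -1.46 with siRNA 1 and -1.33 with siRNA 2 in myoblasts (adjusted p = 1.69e-05 and 1.14e-05), and -1.20 and -1.54 in myotubes (0.00299 and 0.000581), by edgeR's quasi-likelihood test. The column of myoblast siRNA 2 replicate 3 is named with SETD3 where its label has SETD2, and the name of myotube control replicate 3 holds NT_2 where other controls hold NT_1. Names also carry 1 of 2 prefixes per stage, of meaning not given and in unequal numbers per group, called the C prefix (C13 or C14) and the D prefix (D1 or D2) below. Myotube markers (Myog, Myh3, Myh1, Ckm, Acta1, Mymk, Tnnt3, Myl1) summed to 48.3 to 135 TPM in control myoblasts and 19365.6 to 20462.7 in control myotubes, with 8 of 8 at 1 TPM or more in each. Of the markers of other cell types, some were present in control myoblasts. From the fibroblast list these were Col3a1 (634 TPM), Postn (3.21) and Pdgfra (2.52), while Thy1, Dpt, Lum, Pi16 and Tcf21 were under 1 TPM in every control myoblast library. From the osteoblast list they were Runx2 (34.8), Phex (5.96) and Dmp1 (5.38). Sox9 (58.6 TPM) of the chondrocyte list, Pparg (22.4) of the adipocyte list, and Cd14 (10) and Cd68 (2.63) of the macrophage list were also present. Acan, Col2a1, Sp7, Bglap, Adipoq, Plin1, Adgre1 and Ptprc were under 1 TPM in every library, with Adgre1 and Cidec listed at 0, and the 6 endothelial markers summed to at most 4.24 TPM.

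**Figure D1:**
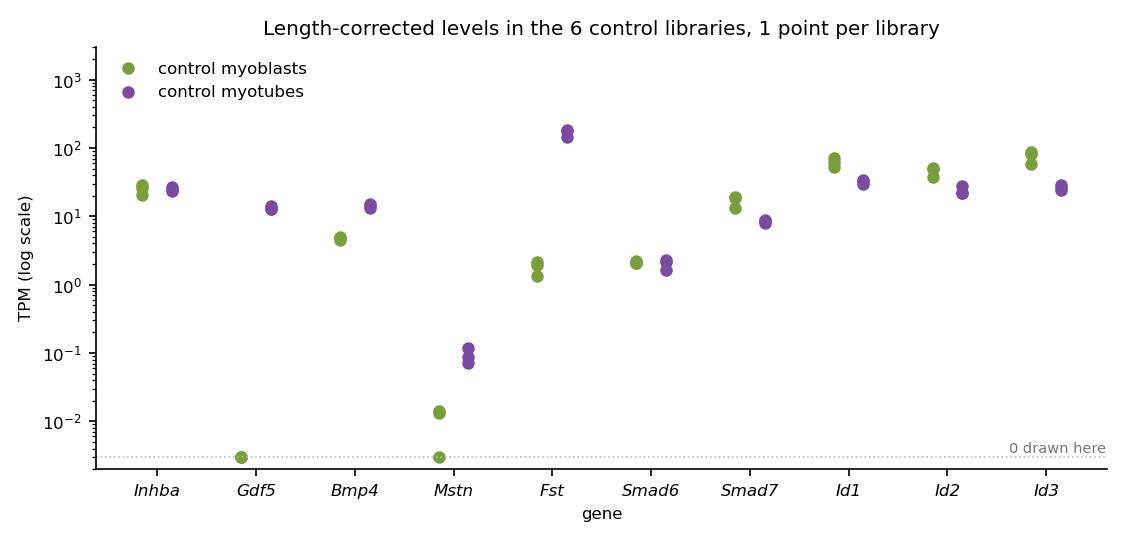
Length-corrected level (TPM, log axis) of each of the 10 genes in the 3 control myoblast libraries (green) and the 3 control myotube libraries (purple), 1 point per library. Fst and Gdf5 have the widest gaps between stages, the Id genes and Smad7 lie lower in myotubes, and values of 0 (Gdf5 and 1 library of Mstn in myoblasts) are drawn on the dotted line.

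The first comparison, of the 6 control libraries, asked what differentiation did to the 10 genes. The antagonist Fst and the ligands Bmp4 and Gdf5 were higher in myotubes, the 3 Id genes and Smad7 were lower, and Inhba and Smad6 did not pass the test. Of the 9 genes tested, 3 rose and 4 fell, with a median log2 fold change of -0.08 against 0.0 over all genes tested. Differentiation moved most of the transcriptome, with 77.5% of 16930 genes called (39.4% higher, 38.1% lower), so a share of 7 in 9 is near the background. Mstn was too low to be tested, and Gdf5 passed the filter through its myotube counts alone. In bulk RNA, fewer cells of a type and less RNA per cell cannot be told apart, and the C13 and D1 prefixes are found in myotubes and C14 and D2 in myoblasts, so that prefix and stage cannot be told apart either.

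Fst (chromosome 13, 114452290 to 114458951 of mm10, minus strand) changed most among the genes with counts in both stages. Control myoblasts held 1.57, 2.53 and 2.31 CPM and control myotubes 207, 171 and 210 CPM. The stages are far apart, with a 92.1-fold rise (log2 fold change 6.52, SE 0.18, adjusted p = 1.1e-13). Per length, Fst went from 1.81 ± 0.421 TPM, a level whose range overlapped that of Smad6, to 168 ± 19.7 TPM, the highest of the 10 genes. An antisense gene, Gm47040, overlaps Fst, and since the strand of the libraries is not given their reads cannot be told apart. The same holds for Inhba (B230303A05Rik and Gm48444), Bmp4 (Gm15217 and Gm15222) and Gdf5 (Gm15557).

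Gdf5 (chromosome 2, 155941023 to 155945367, minus strand), a BMP-type ligand known from joint formation, had 0 counts in all 3 control myoblast libraries and 645, 1071 and 748 counts in control myotubes. In myotubes this came to 15, 16.4 and 14.5 CPM. Control myotubes were at least 873-fold higher, taking 3 counts over the myoblast group as its floor. Depleted cells showed the same contrast of stages: 1558 counts against 2 with siRNA 1, a ratio of 861 (95% exact counting interval 238 to 7115.7), and 1592 against 4 with siRNA 2, a ratio of 404 (158 to 1486). These intervals cover counting error only.

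Bmp4 (chromosome 14, 46383520 to 46390669, minus strand), the classical BMP ligand, stood at 4.23, 4.09 and 3.9 CPM in control myoblasts and 11.4, 12.6 and 12.8 in control myotubes. The groups did not overlap, and the rise was 3.02-fold (log2 fold change 1.59, SE 0.12, adjusted p = 1.08e-10). Inhba (chromosome 13, 16011851 to 16031621, plus strand), which encodes the subunit of activin A, stood at 15.4, 19.7 and 21.6 CPM in control myoblasts and 17.3, 20.4 and 18.7 in control myotubes. The 2 ranges overlapped, with a log2 difference of -0.01 (SE 0.13, adjusted p = 0.951).

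Mstn (chromosome 1, 53061640 to 53068079, plus strand) encodes myostatin, the muscle-made brake on muscle growth. It was barely detected: control myoblasts held 1, 0 and 1 counts and control myotubes 7, 8 and 5. The ratio of the 2 groups was 10.7 with a 95% exact counting interval of 2.61 to 94.6. Those of the depleted groups were 5.08 (1.89 to 17.1; 23 counts against 5) with siRNA 1 and 19.3 (4.99 to 165; 38 against 2) with siRNA 2. In myotubes its length-corrected level was 0.0931 ± 0.0239 TPM, the lowest of the 10 genes.

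The inhibitors differed from each other. Smad7 (chromosome 18, 75367529 to 75395935, plus strand), which blocks both the activin and the BMP branch, stood at 21.3, 29.2 and 28.5 CPM in control myoblasts and 11.6, 11.7 and 13.9 in control myotubes, without overlap. It fell by 1.08 on the log2 scale (SE 0.18, adjusted p = 7.9e-05). Smad6 (chromosome 9, 63953076 to 64022059, minus strand), which acts mainly on the BMP branch, stood at 3.38, 3.14 and 3.16 CPM against 3.24, 2.52 and 3.46. These ranges overlapped (log2 difference -0.08, adjusted p = 0.671).

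Id3 (chromosome 4, 136143497 to 136145755, plus strand) fell furthest of the 3 Id genes. It was at 34.4, 50 and 47.5 CPM in control myoblasts and 15.7, 14.4 and 16.2 in control myotubes, a log2 fold change of -1.51 (SE 0.19, adjusted p = 6.77e-06). Id1 (chromosome 2, 152736251 to 152737410, plus strand) went from 22.1, 29.4 and 25.6 CPM to 12.4, 13.8 and 14 (log2 fold change -0.93, SE 0.13, adjusted p = 5.82e-06). Id2 (chromosome 12, 25093799 to 25097140, minus strand) went from 22.3, 30.3 and 29.7 CPM to 13.1, 16.3 and 12.8 (log2 fold change -0.95, SE 0.19, adjusted p = 0.000467). For each Id gene, every control myotube library lay below every control myoblast library.

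Set in order per length, control myoblasts had Id3 at 75.2 ± 14.8 TPM and Id1 at 61.6 ± 8.64, whose ranges overlapped, then Id2 at 45.9 ± 7.5, Inhba at 25.1 ± 4.17, Smad7 at 17.0 ± 3.2 and Bmp4 at 4.78 ± 0.238. Smad6 (2.10 ± 0.0906) and Fst (1.81 ± 0.421) followed with overlapping ranges, above Mstn and Gdf5 near 0. In control myotubes the order began with Fst and then Id1 at 32.5 ± 2.41 TPM. Id3 (26.6 ± 2.04), Inhba (25.1 ± 1.93) and Id2 (23.9 ± 3.04) came next, each overlapping its neighbour. Bmp4 at 14.3 ± 0.915 TPM and Gdf5 at 13.2 ± 0.684 overlapped, and Smad7 (8.48 ± 0.442), Smad6 (2.04 ± 0.344) and Mstn followed apart from one another. Thus the Id genes led in myoblasts and Fst led in myotubes.

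**Figure D2:**
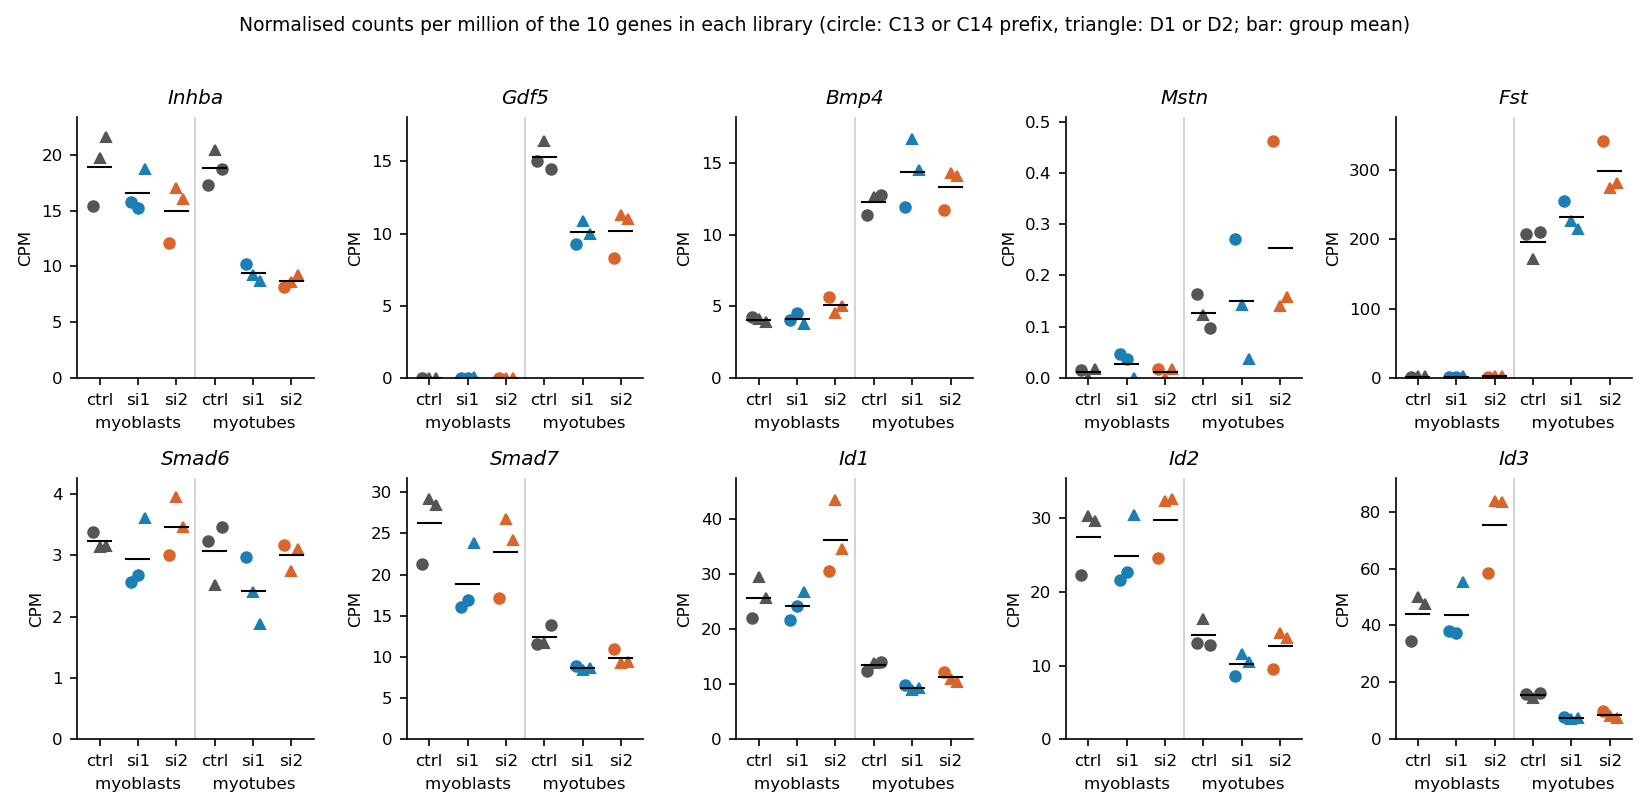
TMM-scaled CPM of each gene in the 18 libraries (fit of all libraries), by stage and siRNA, with circles for libraries of prefix C13 or C14, triangles for D1 or D2, and bars for group means of 3. In myotubes both depleted groups of Inhba, Gdf5, Id3, Id1 and Smad7 lie below every control, and in myoblasts the siRNA 2 group of Id3 lies above every control.

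Depleted myotubes were compared with control myotubes, 1 siRNA at a time, to show what loss of Setd2 did in differentiated cells. Inhba and Id3 fell to about the same extent, Gdf5, Smad7 and Id1 fell less, and all 5 fell with each siRNA. Of the 9 genes tested, siRNA 1 lowered 5 and raised none, beside 20.5% of all 16097 genes called (11% higher, 9.57% lower), and siRNA 2 lowered 5 and raised 1, beside 32.2% (15.8% higher, 16.4% lower). Over all genes the higher share of the calls was 53.4% with siRNA 1 and 49.1% with siRNA 2, and 30.6% and 25.2% on the TPM scale (limma, log2(TPM + 1)), where Inhba, Id3, Gdf5, Smad7 and Id1 kept their calls. The 5 that fell with both stand beside 13.4% of all genes called the same way with both siRNAs (6.27% lower, 7.14% higher). The median of the 9 log2 fold changes was -0.51 with siRNA 1 and -0.27 with siRNA 2, where that of all genes was -0.0 and -0.01. Both comparisons share the 3 control libraries. The same libraries held a summed level of the 8 myotube markers of 19365.6 to 20462.7 TPM in controls, 21678.5 to 22227.6 under siRNA 1 and 21676.6 to 22559.2 under siRNA 2, above the controls in each depleted library, and the part of this in the falls was not tested. Among the 8, Myog had a lower mean under depletion (1267.1 TPM in controls, 1135.2 under siRNA 1, 1114.8 under siRNA 2), and the others had higher means with each siRNA. Fibroblast markers, mostly Col3a1, summed to 731 to 890 TPM in controls, 578 to 740 under siRNA 1 and 528 to 758 under siRNA 2, with Tcf21 listed at 0, and their part was likewise not tested.

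Inhba stood at 16.9, 19.7 and 18.3 CPM in control myotubes, at 10.1, 8.96 and 8.52 with siRNA 1, and at 8.02, 8.31 and 9.03 with siRNA 2. Each of the 6 depleted libraries lay well below the lowest control. The level with siRNA 1 was 0.501 of the control level (log2 fold change -1.0, SE 0.08, adjusted p = 1.82e-05), and with siRNA 2 it was 0.461 (-1.12, SE 0.08, adjusted p = 1.97e-06). Among libraries of the same prefix the log2 ratios were -0.79 (C) and -1.16 (D) with siRNA 1 and -1.12 and -1.18 with siRNA 2. Inhba was the gene that fell most with siRNA 2 among the 9.

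Gdf5 stood at 14.7, 15.8 and 14.2 CPM in control myotubes, at 9.15, 10.7 and 9.71 with siRNA 1, and at 8.15, 11 and 10.7 with siRNA 2. Again no depleted library reached a control. The levels were 0.658 of control with siRNA 1 (log2 fold change -0.60, SE 0.10, adjusted p = 0.00184) and 0.667 with siRNA 2 (-0.58, SE 0.10, adjusted p = 0.00117). Within prefixes they were -0.66 and -0.63 with siRNA 1 and -0.82 and -0.54 with siRNA 2. The BMP ligand Bmp4 did not pass the test: it stood at 11.2, 12.2 and 12.6 CPM in controls, 11.8, 16.2 and 14.2 with siRNA 1 (log2 difference 0.23, adjusted p = 0.185) and 11.5, 13.8 and 13.7 with siRNA 2 (0.12, adjusted p = 0.47). Without siRNA 1 replicate 1, whose 11.8 CPM lay within the controls, Bmp4 was called higher (0.35, adjusted p = 0.0221).

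Mstn stayed under the filter on low counts in myotubes and was not tested. Its counts were 7, 8 and 5 in controls, 14, 7 and 2 with siRNA 1, and 22, 8 and 8 with siRNA 2. The ratio to control was 1.18 with siRNA 1 (counting interval 0.622 to 2.27) and 1.96 with siRNA 2 (1.11 to 3.56). The second ratio rests on replicate 1, since the other siRNA 2 libraries held counts like the controls, and spread between cultures is not in that interval.

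Fst, whose product binds the activin made from Inhba, passed the test with siRNA 2 and not with siRNA 1. It stood at 203, 166 and 205 CPM in controls, 252, 220 and 209 with siRNA 1, and 335, 264 and 274 with siRNA 2. Every depleted library lay above every control, by little for siRNA 1 replicate 3. The rise was 1.52-fold with siRNA 2 (log2 fold change 0.61, SE 0.12, adjusted p = 0.00775; 0.72 and 0.70 within prefixes), and the value with siRNA 1 was 0.25 (SE 0.12, adjusted p = 0.211; 0.30 and 0.37 within prefixes). The difference between the siRNAs did not pass with edgeR (0.36, adjusted p = 0.0907) and did with DESeq2 (0.36, adjusted p = 0.0354). With the prefix in the model both that difference (0.36, adjusted p = 2.72e-06) and the siRNA 1 rise (0.34, adjusted p = 7.85e-06) passed.

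Smad7 stood at 11.4, 11.3 and 13.6 CPM in control myotubes, 8.79, 8.23 and 8.41 with siRNA 1, and 10.7, 8.98 and 9.11 with siRNA 2. The depleted libraries lay below the controls, with siRNA 2 replicate 1 close to them. Smad7 fell by 0.51 on the log2 scale with siRNA 1 (SE 0.09, adjusted p = 0.00185; -0.50 and -0.44 within prefixes) and by 0.33 with siRNA 2 (SE 0.09, adjusted p = 0.0124; -0.22 and -0.32), or -0.52 on log2(TPM + 1). The siRNA 2 call was lost without siRNA 2 replicate 2 (-0.27, adjusted p = 0.0643), without siRNA 2 replicate 3 (-0.29, 0.0556), and without control replicate 3, the NT_2 library (-0.24, 0.0588). In 1 fit of all libraries neither call passed (-0.52, adjusted p = 0.0803, and -0.33, 0.223). Smad6 stood at 3.17, 2.44 and 3.39 CPM in controls, 2.94, 2.35 and 1.84 with siRNA 1 and 3.12, 2.65 and 3.03 with siRNA 2, with overlapping ranges and no call (-0.33, adjusted p = 0.209, and -0.03, adjusted p = 0.924).

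Id3 stood at 15.4, 13.9 and 15.9 CPM in control myotubes, 7.75, 6.90 and 7.15 with siRNA 1, and 9.61, 8.04 and 7.39 with siRNA 2. All 6 depleted libraries lay far below the controls. The levels were 0.483 of control (log2 fold change -1.05, SE 0.09, adjusted p = 3.08e-05; -1.0 and -0.98 within prefixes) and 0.554 (-0.85, SE 0.09, adjusted p = 3.71e-05; -0.70 and -0.84 within prefixes). This came on top of the lower level of Id3 in control myotubes than in control myoblasts.

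Id1 stood at 12.2, 13.4 and 13.8 CPM in controls, 9.75, 8.69 and 9.02 with siRNA 1, and 11.9, 10.6 and 10.1 with siRNA 2. The groups did not overlap, though siRNA 2 replicate 1 came close to the lowest control. Id1 fell by 0.52 on the log2 scale with siRNA 1 (SE 0.08, adjusted p = 0.000678; -0.41 and -0.59 within prefixes) and by 0.27 with siRNA 2 (SE 0.08, adjusted p = 0.0167; -0.12 and -0.37). The siRNA 2 call was lost without siRNA 2 replicate 2 (-0.24, adjusted p = 0.0716) or 3 (-0.21, 0.084), without control replicate 2 (-0.26, 0.0572) or 3 (-0.24, 0.068), and in 1 fit of all libraries (-0.27, 0.148). Id2 did not pass with either siRNA. It stood at 12.9, 15.8 and 12.6 CPM in controls, at 8.52, 11.2 and 10.2 with siRNA 1, all below the controls (log2 difference -0.46, SE 0.17, adjusted p = 0.0907), and at 9.41, 14 and 13.5 with siRNA 2, overlapping them (-0.16, adjusted p = 0.505). DESeq2 called the siRNA 1 value (-0.46, adjusted p = 0.0154), as did limma on log2(TPM + 1) (-0.49, 0.0481). With the prefix in the model Id2 was called lower with siRNA 1 (-0.59, adjusted p = 1.91e-05) and with siRNA 2 (-0.3, adjusted p = 0.0025).

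**Figure D3:**
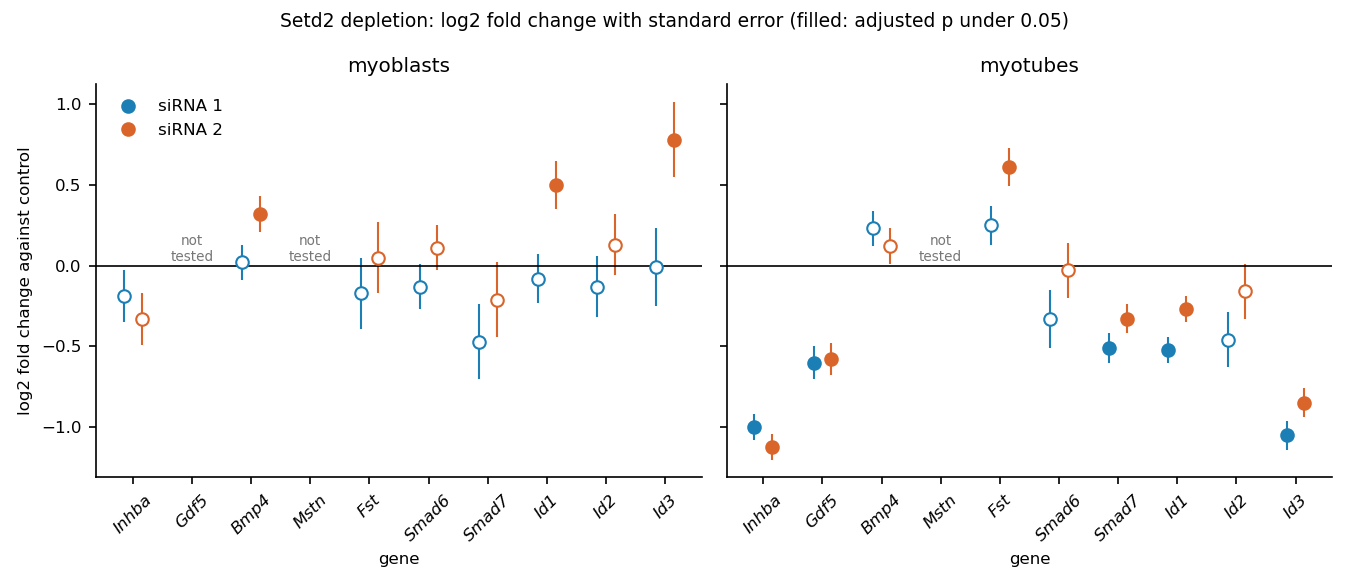
Log2 fold change against control (points) with its standard error (bars) for each gene and siRNA, in myoblasts (left) and myotubes (right); filled points passed edgeR's test at an adjusted p under 0.05. In myotubes both siRNAs are filled below 0 for Inhba, Gdf5, Smad7, Id1 and Id3, and in myoblasts the filled points are those of siRNA 2 for Bmp4, Id1 and Id3, all above 0.

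Depleted myoblasts were compared with control myoblasts in the same way, again with 3 control libraries shared by both siRNAs. No member was called with both siRNAs, beside 11.9% of all 15586 genes called the same way with both (7.69% higher, 4.25% lower). This turned with the prefix in the model: Smad7 was then called lower with both siRNAs (-0.31, adjusted p = 4.72e-06, and -0.22, adjusted p = 0.000158). Id3 was then called higher with siRNA 1 (0.16, adjusted p = 0.000209) and kept its higher call with siRNA 2. The fit with the prefix also called more of all 15586 genes, 5029 with siRNA 1 and 7215 with siRNA 2, against 3122 and 5222 without it. The 11.9% is from the model without the prefix. With siRNA 1, 0 of 8 tested genes passed edgeR's test, beside 20% of all genes (11.6% higher, 8.44% lower), and the median of the 8 was -0.13 against 0.01 over all genes. None of the 8 had an unadjusted p under 0.05 with siRNA 1, and DESeq2 called none. With siRNA 2, Id3, Id1 and Bmp4 rose and none fell, beside 33.5% (17.1% higher, 16.5% lower), with a median of 0.12 against 0.0. The higher share of all calls was 57.9% and 50.9% with siRNA 1 and 2, and 27.7% and 36.9% on log2(TPM + 1). Gdf5 and Mstn were below the filter.

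Id3 stood at 35.2, 51.1 and 48.6 CPM in control myoblasts, 38.9, 38.6 and 56.3 with siRNA 1, and 60.1, 85.8 and 85.7 with siRNA 2. The siRNA 1 libraries overlapped the controls (log2 difference -0.01, adjusted p = 0.983), while all siRNA 2 libraries lay above it. The rise with siRNA 2 was 1.72-fold (log2 fold change 0.78, SE 0.23, adjusted p = 0.0423), and 0.77 and 0.78 within prefixes. In each group the 1 or 2 libraries of the C14 prefix were lowest. With the prefix in the model, the siRNA 1 value was 0.16 and passed (adjusted p = 0.000209).

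Id1 stood at 22.6, 30 and 26.1 CPM in controls, 22.3, 24.9 and 27.3 with siRNA 1, and 31.4, 44.5 and 35.4 with siRNA 2. Only the siRNA 2 libraries all lay above the controls. The rise with siRNA 2 was 1.41-fold (log2 fold change 0.50, SE 0.15, adjusted p = 0.04; 0.47 and 0.51 within prefixes), and the siRNA 1 value was -0.08 (adjusted p = 0.779). Bmp4 stood at 4.33, 4.18 and 3.99 CPM in controls, 4.18, 4.64 and 3.81 with siRNA 1, and 5.81, 4.63 and 5.12 with siRNA 2. Its siRNA 2 libraries lay above the controls, 1.25-fold on average (0.32, SE 0.11, adjusted p = 0.0368; 0.42 and 0.25 within prefixes).

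These 3 calls depended on single libraries. Without siRNA 2 replicate 3, the library named with SETD3, none passed (Id3 0.70, adjusted p = 0.12; Id1 0.53, 0.0765; Bmp4 0.33, 0.0783), nor did any without control replicate 3 (0.84, 0.0865; 0.49, 0.105; 0.29, 0.116). Without siRNA 2 replicate 2, Id3 (0.70, 0.117) and Id1 (0.35, 0.0771) were lost. Without control replicate 1 all 3 were lost (Id3 0.62, 0.108; Id1 0.39, 0.115; Bmp4 0.34, 0.0577) and Inhba was called lower (-0.47, 0.0422). Without control replicate 2, Id3 (0.88, 0.0683) and Bmp4 (0.32, 0.0914) were lost, and without siRNA 2 replicate 1, Bmp4 (0.23, 0.159). With no filter on low counts none of the 3 passed (Id3 0.77, adjusted p = 0.0779; Id1 0.49, 0.109; Bmp4 0.31, 0.0518), and on log2(TPM + 1) Bmp4 did not (0.18, 0.123). The direction held in each of these fits. In the same libraries fibroblast markers summed to 590 to 718 TPM in controls, 599 to 774 under siRNA 1 and 788 to 953 under siRNA 2, and myotube markers to 48.3 to 135, 52.2 to 134 and 97.4 to 200 TPM, and their part in the rises was not tested.

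The other myoblast values missed the threshold. Inhba stood at 15.8, 20.2 and 22.1 CPM in controls, 16.2, 15.6 and 19.0 with siRNA 1, and 12.4, 17.4 and 16.4 with siRNA 2 (log2 differences -0.19, adjusted p = 0.472, and -0.33, adjusted p = 0.157). Smad7 stood at 21.7, 29.9 and 29.1 CPM, 16.5, 17.4 and 24.3, and 17.5, 27.5 and 24.8 in the same order (-0.47, adjusted p = 0.214, and -0.21, adjusted p = 0.544). Inhba was called lower with siRNA 2 by DESeq2 (-0.33, adjusted p = 0.0408) and with the prefix in the model (-0.33, adjusted p = 3.14e-06). For both genes the lowest value of a group came from a library of the C14 prefix. Id2 ran from 22.2 to 33.4 CPM, Smad6 from 2.62 to 4.05 and Fst from 1.61 to 2.63 over the 9 myoblast libraries, with no call.

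The 2 siRNAs were set against each other within each stage. In myoblasts Id1 and Id3 were higher with siRNA 2 than with siRNA 1 and no member was lower, beside 26.3% of all genes called (12.1% higher, 14.3% lower). The differences were 0.58 for Id1 (adjusted p = 0.0278) and 0.79 for Id3 (SE 0.23, adjusted p = 0.049). Without siRNA 2 replicate 3 neither passed (Id1 0.61, adjusted p = 0.062; Id3 0.71, 0.138), nor without siRNA 1 replicate 1 (0.50, 0.0931; 0.70, 0.149) or 2 (0.58, 0.0837; 0.70, 0.147), and without siRNA 2 replicate 2 Id3 did not (0.71, 0.133). In myotubes Id1 was the 1 member called, higher by 0.25 with siRNA 2 (adjusted p = 0.0445), beside 17.1% (7.76% higher, 9.36% lower; a higher share of 45.3% of the calls, and 33.9% on log2(TPM + 1), where Id1 did not pass, 0.21, adjusted p = 0.123). That call was lost without siRNA 2 replicate 1 (0.18, adjusted p = 0.121) or 2 (0.27, 0.0726), and without siRNA 1 replicate 2 (0.22, 0.133) or 3 (0.24, 0.118). Without siRNA 2 replicate 1, Id2 was called in its place (0.46, 0.0291). In myotubes Inhba, Gdf5 and Smad7 were not called between the siRNAs, and Id3 differed by 0.20 (adjusted p = 0.191).

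Whether depletion acted differently in the 2 stages was tested as a contrast in the fit of all libraries: the average log2 effect of siRNA 1 and siRNA 2 in myotubes, less that in myoblasts. Id3, Inhba and Id1 differed, each with the lower value in myotubes, out of 9 genes tested with a median of -0.31, beside 23.4% of all genes called (10.6% higher, 12.8% lower). The difference was -1.33 for Id3 (SE 0.24, adjusted p = 0.00132), whose effects were -0.01 and 0.78 in myoblasts and -1.05 and -0.85 in myotubes. For Inhba it was -0.79 (SE 0.16, adjusted p = 0.00207), with -0.19 and -0.33 in myoblasts against -1.0 and -1.12 in myotubes. For Id1 it was -0.60 (SE 0.16, adjusted p = 0.0111), with -0.08 and 0.50 against -0.52 and -0.27. Smad7, which fell in myotubes and was not called in myoblasts, was not shown to differ between the stages (-0.08, adjusted p = 0.858), nor were Id2 (-0.31, adjusted p = 0.413), Fst (0.49, adjusted p = 0.184) or Bmp4 (0.01, adjusted p = 0.993). With the prefix in the model Id2 (-0.51, adjusted p = 4.1e-07) and Fst (0.49, adjusted p = 7.68e-05) were called. The value for Gdf5 (-3.68, SE 1.57, adjusted p = 0.106) rests on 0 to 4 counts per myoblast group and carries no information on a myoblast effect. The same holds for its calls with the prefix in the model (-3.89, adjusted p = 0.0375) and by limma on log2(TPM + 1) (-0.64, adjusted p = 0.000485). The calls of Id3, Inhba and Id1 held without any 1 of the 18 libraries.

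The RNA of most genes came from 1 transcript in every group. In control myotubes Id1-201 made up 96% of Id1 TPM, Id3-201 95.4% of Id3 and Smad6-201 100% of Smad6. Smad7 was divided between Smad7-201 (58.7% ± 6.4) and Smad7-204 (36.7% ± 7.85), with Smad7-201 at 66.4% with siRNA 1 and 67.5% with siRNA 2. Bmp4 was divided between Bmp4-202 (58.5%) and Bmp4-201 (38.3%) in control myotubes. Shares of transcripts that differ in few bases are estimates of the quantifier and were not tested.

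The rest of the pathway was followed in 8 lists of its other genes, counted without the 10 members. On differentiation, beside 39.4% of all genes called higher and 38.1% lower, 10 of 14 tested ligands rose and 1 fell, 11 of 15 receptors and co-receptors rose and 1 fell, and 11 of 14 secreted antagonists rose and 1 fell, with medians of 1.63, 0.83 and 1.37 on the log2 scale beside 0.0 over all genes. In the fit of myoblasts alone the filter kept 10 ligands, 14 receptors and co-receptors and 12 antagonists. In that of myotubes alone it kept 14, 15 and 14. Genes kept only through their myotube counts lean higher by that choice, which adds to these counts and medians. Fst and Bmp4 rose along with Tgfb3 (2.87), the co-receptor genes Hfe2 (7.25) and Rgma (2.83), and the BMP antagonist Chrd (4.58), while Inhba did not pass. Of 11 other BMP and Smad1/5 targets, 8 fell and 2 rose, with a median of -1.24. Among them Msx2 fell by 1.86, Smad9 by 1.51 and Gata2 by 1.5, in the same direction as the Id genes, and Hey1 rose (1.29). Of 13 activin and TGF-beta targets, 10 rose and 1 fell, with a median of 1.03. Of the E proteins that Id products bind, Tcf3 fell by 0.92 and Tcf4 rose by 1.02. Of 12 intracellular inhibitors, the list of Smad7, 6 rose and 5 fell. Of 6 signal-transducing Smads 2 rose, Smad3 (0.96) among them, and 2 fell.

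**Figure D4:**
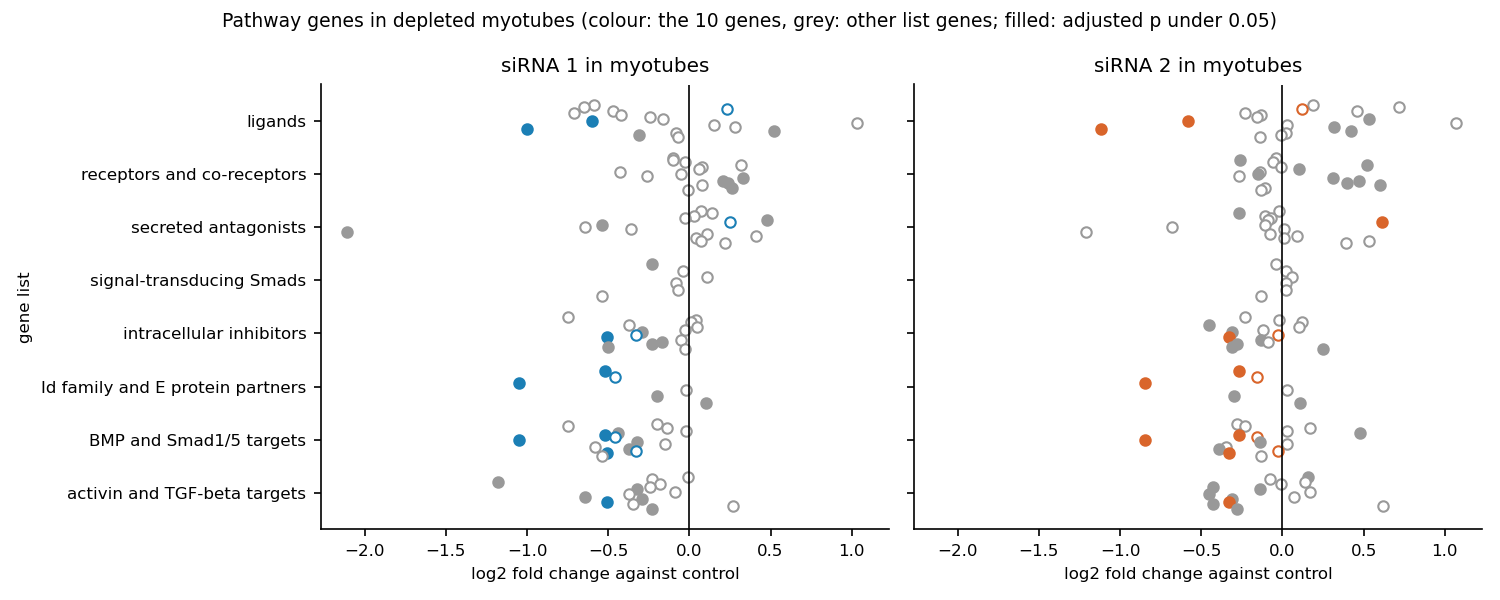
Log2 fold change against control in myotubes of every tested gene in the 8 pathway lists, for siRNA 1 (left) and siRNA 2 (right); coloured points are the 10 genes described here, grey points the other list genes, and filled points passed edgeR's test. Inhba and Gdf5 lie left of most other ligands, and Id3 lies left of the other BMP targets with each siRNA.

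In depleted myotubes the lists are read beside the 13.4% of all genes called the same way with both siRNAs (7.14% higher, 6.27% lower). Of 14 other ligands 1 rose with both and none fell: Inhbb, which encodes another activin beta subunit, went from 33.4 ± 1.7 CPM to 47.9 ± 6.91 and 44.7 ± 4.19 (log2 fold changes 0.52 and 0.42, adjusted p = 0.00829 and 0.0141), opposite to Inhba. Of 15 receptors and co-receptors 3 rose with both and none fell, all of them BMP co-receptor genes of the repulsive guidance molecule family: Hfe2 (0.33 and 0.31), Rgma (0.21 and 0.47) and Rgmb (0.24 and 0.40). None of 14 secreted antagonists was called the same way with both, and none of 6 Smads was. Of 12 intracellular inhibitors 3 fell with both and none rose, the corepressor genes Tgif2 (-0.50 and -0.31), Skil (-0.29 and -0.31) and Tgif1 (-0.23 and -0.28), in the direction of Smad7.

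Among the targets, 2 of 10 other BMP targets fell with both siRNAs and none rose: Runx2 (-0.37 and -0.39), a factor of bone formation, and Junb (-0.32 and -0.14). The list's median was -0.35 with siRNA 1 and -0.14 with siRNA 2. Of 13 activin and TGF-beta targets 3 fell with both and none rose, namely Skil, Tgif1 and Junb, which also stand in the lists above, with medians of -0.24 and -0.08. Counting those 3, 5 of the 13 fell with siRNA 1, beside 9.57% of all genes called lower with it. With siRNA 2, 6 fell and 1 rose, beside 16.4% lower and 15.8% higher. Ccn2, named here after its values were seen, fell by 1.18 with siRNA 1 (adjusted p = 8.64e-05), further than Inhba and Id3, and was at 0.14 with siRNA 2 (adjusted p = 0.266). Of the E protein partners Tcf3 fell (-0.20 and -0.30) and Tcf4 rose (0.10 and 0.11).

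In depleted myoblasts, beside 11.9% of all genes, none of 10 other ligands, 11 BMP targets, 4 Id and E protein genes or 6 Smads was called the same way with both siRNAs. Neither was any of the 10 members without the prefix in the model. The antagonist genes Twsg1 (0.22 and 0.34) and Fstl3 (0.25 and 0.16), a relative of Fst, rose with both out of 12. Among inhibitors Ski (0.23 and 0.43) and Smurf2 (0.10 and 0.28) rose and Pmepa1 (-0.46 and -0.42) fell with both out of 12. Of 14 receptors Acvr2a (0.15 and 0.32), an activin and myostatin receptor, rose and Tgfbr3 (-0.49 and -0.42) fell. Among the activin and TGF-beta targets Tagln (0.33 and 0.45) rose with both, and Pmepa1 again and Fn1 (-0.17 and -0.43) fell with both.

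The genes whose levels ran most like those of Id1 and Inhba were listed by Pearson's r of log2(CPM + 0.5), as a description that the design of stages and siRNAs itself shapes. Over the 18 libraries and 12685 genes, the 3 most like Id1 were Dnajb1 (r = 0.987), Neto2 (0.981) and Tpbg (0.980), and those most like Inhba were A230050P20Rik (0.909), Gpsm1 (0.908) and Tmem260 (0.898). Within the 9 myotube libraries and 12710 genes they were Lef1 (0.983), Syde1 (0.979) and Rap2b (0.978) for Id1, and Orc1 (0.989), Pask (0.987) and Uhrf1 (0.986) for Inhba. Within the 9 myoblast libraries and 12221 genes they were Gm20605 (0.970), Zfp36 (0.970) and Nufip2 (0.968) for Id1, and Eps8 (0.980), Syde2 (0.978) and Mfsd1 (0.974) for Inhba. For neither gene did a name recur between these lists. Mstn lay under 1 CPM and was not compared.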

How the data were processed

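PolyA RNA of 18 C2C12 libraries was measured. The authors deposited 1 table per stage with estimated counts and TPM for 115088 transcripts, with columns named, per the file headers, as salmon names them; the tool, its version and the strand setting were not given in the sources used here. TPM deposited by the authors are length-corrected and scaled within each library; the estimated counts are unscaled. The submitters' processing notes name mm10 and DESeq2 without a role. Transcripts were matched to GENCODE M21 (114200 matched; the 888 unmatched held 0.16% to 0.24% of counts and were left out), added up by gene and rounded to whole numbers.

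Genes passing filterByExpr (minimum count 10) were tested with edgeR 4.0.16 in R 4.3.3 (TMM, robust quasi-likelihood fits, Benjamini-Hochberg adjustment over all genes tested, with calls at an adjusted p under 0.05). A stage's 9 libraries shared 1 fit (6 residual degrees of freedom). Stages were compared in a fit of all 18 (12 residual degrees of freedom), and CPM come from the fit of the comparison. Within-prefix values are log2 ratios of mean CPM + 0.1, with no test. Script checks on simulated data preceded the analysis. Alternatives used RLE scaling, DESeq2 1.42.0, no filter, limma 3.58.1 on log2(TPM + 0.1) and log2(TPM + 1), the prefix or the replicate number in the model, other samples in the fit, and each library left out. Libraries differ in depth from 43.5 to 66.6 megareads. Counting intervals are exact at 95%, and the floor for 0 is 3 counts.

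All 10 members are named throughout; of each pathway list, up to 4 other genes were eligible to be named, by the largest changes called with both siRNAs or on differentiation, and the 3 genes of highest r for likeness. An item that this rule would name is not reported here. Members and lists were chosen with earlier results of these data known. Sequences are from RefSeq.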

Additional observations from a re-analysis of the deposited data

Results flagged for a closer look

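In 3 genes the effect of depletion differed between the stages by the test of the difference itself (edgeR, mean of both siRNAs, myotubes minus myoblasts). The log2 difference was -1.33 for Id3 (adjusted p = 0.00132), where the siRNA 2 libraries lay above the controls in myoblasts and all 6 depleted libraries lay below them in myotubes. It was -0.79 for Inhba (adjusted p = 0.00207), which fell in 6 of 6 depleted myotube libraries. In myoblasts edgeR did not call Inhba with all 9 libraries and the groups alone in the model. With siRNA 2 it was called lower there by DESeq2 (-0.33, adjusted p = 0.0408). So it was by edgeR with the prefix (-0.33, 3.14e-06), with the replicate block (-0.33, 0.0138) and without control replicate 1 (-0.47, 0.0422). The log2 difference between the stages was -0.60 for Id1 (adjusted p = 0.0111), which, like Id3, was called higher with siRNA 2 in myoblasts and lower with both siRNAs in myotubes. Those myoblast calls of both genes were lost in several fits, among them that without the low-count filter and that without siRNA 2 replicate 3. In 1 fit of all libraries the siRNA 2 call of Id1 in myotubes was lost (-0.27, adjusted p = 0.148). Over 25 alternatives each, all 3 kept their call for the difference between the stages, with ranges of -1.44 to -1.18, -0.90 to -0.67 and -0.71 to -0.51. What sets the stages apart was not tested.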

How the results depend on the processing

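The myotube calls of Id3, Inhba and Gdf5 with each siRNA held under all 14 alternatives, with log2 ranges of -1.11 to -0.98 and -0.96 to -0.76 (Id3), -1.06 to -0.93 and -1.19 to -1.06 (Inhba), and -0.68 to -0.55 and -0.68 to -0.46 (Gdf5). So did Fst with siRNA 2 and Id1 with siRNA 1. Of all member values under the alternatives, 922 kept direction and side of the threshold, 46 lost and 40 gained a call, 47 moved otherwise and 1 reversed: Id3 with siRNA 1 in myoblasts, at 0.16 with the prefix in the model.

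Counts of members called changed as follows. With the prefix in the model they were 2 and 6 for siRNA 1 and 2 in myoblasts, where that fit called 5029 and 7215 of all genes, against 3122 and 5222 without the prefix. Member counts were 5 and 4 between the siRNAs in myoblasts and myotubes (6263 and 4030 of all genes, against 4103 and 2755), and 6 for the stage difference (5426, against 3962). Without the low-count filter the member counts were 0 for siRNA 2 and 0 between siRNAs in myoblasts (4902 and 3872 of all genes). Between siRNAs in myotubes the member counts were 2 with DESeq2 (1 with edgeR), 0 with either TPM pseudocount and 0 in the fit of all libraries (2784, 2055 and 2049, and 2895 of all genes). Leaving out 1 library gave 8 for differentiation in each case (Mstn then passing the filter), 0 to 2 for siRNA 2 in myoblasts, 5 to 6 and 4 to 6 for siRNA 1 and 2 in myotubes, 0 to 3 and 0 to 1 between siRNAs, and 3 for the stage difference; arms then held 2 libraries.

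Replicate numbers are not stated to pair cultures: same-numbered libraries deviated together with r of -0.25 to 0.45 (21 pairs), against 0.08 to 0.45 within a prefix and -0.51 to 0.05 across prefixes. With the replicate block the member counts were 1 for siRNA 1 in myoblasts (Smad7), 8 for siRNA 1 in myotubes, and 4 and 3 between siRNAs in myoblasts and myotubes. The same fits called 4334, 3738, 5322 and 3177 of all genes, against 3122, 3306, 4103 and 2755 without the block. Calls gained include Inhba with siRNA 2 in myoblasts (-0.33, adjusted p = 0.0138), Fst with siRNA 1 in myotubes (0.25, 0.0316) and Fst between siRNAs there (0.35, 0.00713).

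Over all genes, siRNA 1 calls in myoblasts went from 3122 to 5029 with the prefix and to 2016, 2075, 2013 and 1959 without siRNA 1 replicate 1 or 2 or control replicate 2 or 3. In myotubes they went from 3306 to 2156 and 2042 without siRNA 1 replicate 2 or 3. Calls between siRNAs went from 4103 to 6263 with the prefix in myoblasts and from 2755 to 1817, 1814 and 1762 without siRNA 2 replicate 2 or siRNA 1 replicate 2 or 3 in myotubes. On log2(TPM + 1) the higher share of calls fell from 57.9% to 27.7% and from 50.9% to 36.9% in myoblasts with siRNA 1 and 2, and from 53.4% to 30.6% and 49.1% to 25.2% in myotubes; the cause was not tested. Depth limits Mstn, and Gdf5 in myoblasts.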
